A study of Homo sapiens with 12 samples.

Results

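The laminin chain genes LAMA1, LAMA2, LAMA3, LAMA4, LAMA5, LAMB1, LAMB2, LAMB3 and LAMC1 were examined in A549 cells with and without the transcriptional repressor GFI1. These 9 genes were taken by name from a count table of 58735 genes. Of them, 8 passed the filter on low counts, as did 17829 genes in all, and LAMA1 did not pass. They are 5 alpha, 3 beta and 1 gamma chain gene, and the gene of the gamma2 chain was not analysed here.

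A549 is an established human lung adenocarcinoma line, grown here in RPMI1640 with serum. The 12 RNA-Seq libraries fall into 4 groups of 3: attached control cells, attached GFI1-overexpressing cells, floating control cells and floating GFI1-overexpressing cells. Floating cells were kept in forced suspension for 48 h, in plates to which cells do not adhere, and attached cells were untreated. GFI1 came from a lentivirus that also carried GFP, and by the study's methods GFP-positive cells were sorted for RNA-Seq. Whether the control cells of these libraries carried an empty vector or were sorted is not given in the labels. The labels do not say whether the 3 libraries of a group came from separate cultures, so p-values measure only the spread between these libraries.

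Laminins are large secreted proteins built of 1 alpha, 1 beta and 1 gamma chain, and they form the sheet of the basement membrane on which epithelial cells sit. The alpha chain carries most of the contacts with integrins and dystroglycan at the cell surface, while the beta and gamma chains complete the coiled trimer and join laminins to the rest of the matrix. In lung, the alpha5 chain is the main alpha chain of the epithelial basement membrane, and the alpha3 and beta3 chains belong to the laminin of anchoring junctions.

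GFI1 is a zinc finger repressor whose sites hold the core AATC, so the sequence around a start site of each laminin gene was searched for that core. RefSeq windows of 300 bases around the start of transcription (GRCh38.p14) were at hand for 8 of the 9 members, all but LAMA1. The matches in the members whose levels moved most, or in both directions, are given 5′ to 3′ on the strand of the gene, with the core or its reverse complement GATT in capitals.
LAMB1, chr7:108003312-108003331, minus strand: cgatcgcaGATTcggctttc
LAMB2, chr3:49133194-49133213, minus strand: acaataaaGATTtgtgggtg
LAMB2, chr3:49133081-49133100, minus strand: cttcccagAATCcgctccgg
LAMB2, chr3:49133052-49133071, minus strand: cctgccgcGATTcccaactt
LAMB3, chr1:209652514-209652533, minus strand: ggctgccaGATTcctgagac
LAMA3, chr18:23872772-23872793, plus strand: tcagcctgTGATTTagggcgtc

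The core AATC, read on both strands, was found in the windows of 5 members, LAMA2, LAMA3, LAMB1, LAMB2 and LAMB3, and not in those of LAMA4, LAMA5 and LAMC1. Of 35116 windows of the same length, 69.0% held it. LAMB3 alone had 3 windows: windows 1 and 2 overlap and share its match, and window 3 held none. The longer form AAATCA, which contains the core, occurred in LAMA3 alone among the members and in 13.2% of all windows, and in LAMA3 the capitals mark its reverse complement. The LAMA3 window surrounds the start of a short transcript inside the gene, at chr18:23873020, and the start of the long transcript was not searched. A form in which AAATCA is followed by any 2 bases and then GC was in no member window and in 0.852% of all windows. LAMB2, which rose with GFI1, held 3 core matches, and LAMB1, which fell, held 1. LAMA3 and LAMA5, which also rose, held 1 and 0, and LAMC1 and LAMA4, which also fell, held 0. LAMB3, which fell in floating cells only, held 1. The number of matches in a window was not compared with that of all windows. The windows of LAMA5 and LAMC1 were the richest in G and C, at 82.7% and 79%, against 71% for LAMB1, 58.7% for LAMB2 and 51.3% for LAMA4. A match of so few letters describes the window and does not show binding.

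Total counts ran from 17014188 to 20748677 a library. The transduced gene itself was at 4 to 12 counts in control libraries and at 5154 to 12796 in GFI1 libraries, and its mean was 290.1 CPM in attached and 560.1 CPM in floating GFI1 cells. CPM values are counts scaled to a common library size by TMM, and CPM per kilobase divides them by the exon length of the gene, which allows levels of different genes to be compared. The first principal component of all genes separated GFI1 from control libraries and the second separated floating from attached. The third floating GFI1 library stood apart on the second component, at -13.6 against -20.6 and -23.9 for its replicates. The epithelial keratin and adhesion markers summed to 10386 to 10986 CPM in attached control, 4222 to 4339 in attached GFI1, 6529 to 6938 in floating control and 3039 to 3411 in floating GFI1 libraries, with EPCAM at 2.68 CPM or less throughout. The endothelial list summed to 0.326 to 1.09 CPM in control and 4.11 to 5.67 CPM in GFI1 libraries, the fibroblast list to 7.89 to 15.6 CPM and the leukocyte list to at most 1.42 CPM, with DCN and CD3E at 0 in all 12. The part of these shifts in the laminin results was not tested, and in bulk RNA fewer cells of a kind and less RNA per cell cannot be told apart.

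By level per kilobase, LAMA5 was the most abundant member, with group means of 77.9 to 114.1 CPM per kilobase. LAMB1, LAMB2 and LAMC1 followed, and their order depended on the group: LAMB1 exceeded LAMC1 and LAMB2 in both control groups, and LAMB2 exceeded LAMC1 and LAMB1 in both GFI1 groups. LAMB3 and LAMA3 were lower, between 5.05 and 16.3 CPM per kilobase. In attached GFI1 cells those neighbours were close, LAMA3 at 10.6 and LAMB3 at 9.40 CPM per kilobase, without overlap of their libraries. The place of LAMA3 rests on the deposited exon length, which is longer than its annotated transcripts, as given with the shares of the chains. LAMA2 and LAMA4 had group means of 0.261 CPM per kilobase or less, and LAMA1 was at 3 counts or fewer in every library.

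**Figure D1:**
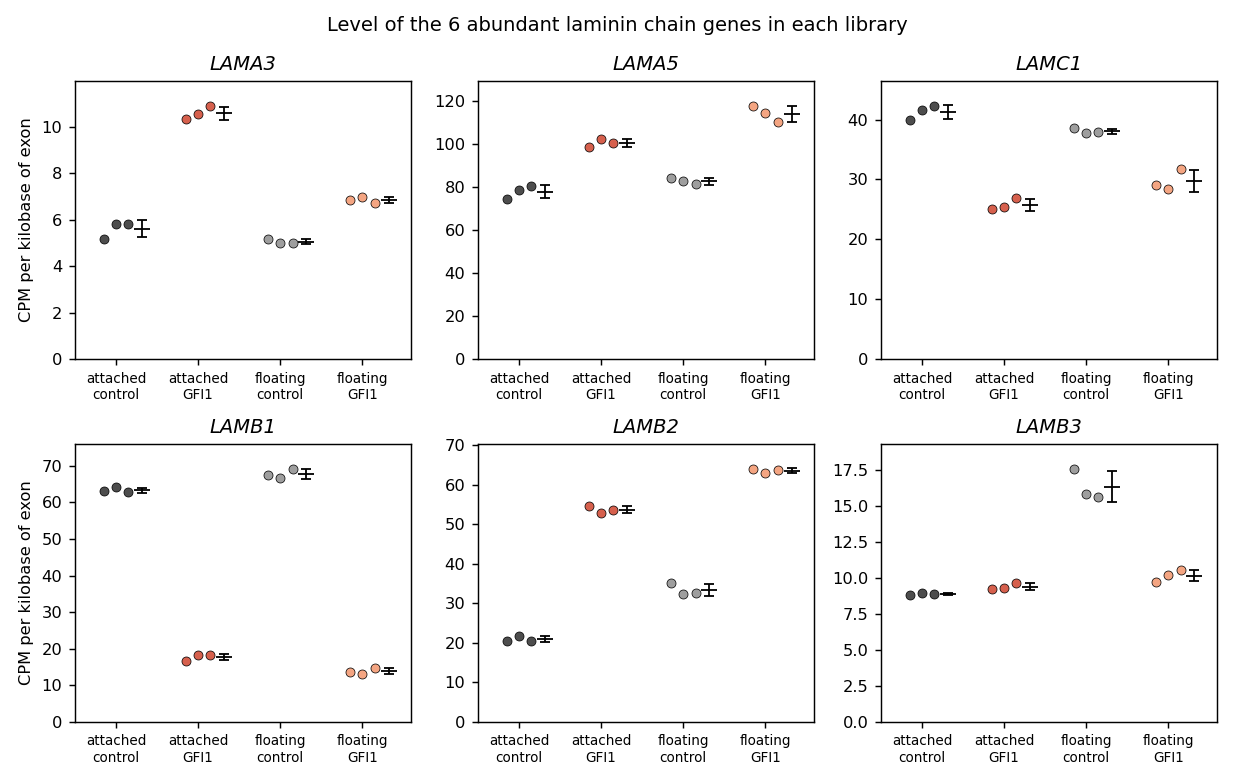
Level of 6 laminin chain genes in CPM per kilobase of exon (vertical axes, each from 0) in the 4 groups, with 1 point for each of 3 libraries and a bar for the mean and SD. LAMB1 fell from 63.3 to 17.7 and LAMB2 rose from 20.9 to 53.6 between attached control and attached GFI1 cells, while LAMB3 was highest in floating control cells at 16.3.

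The first comparison asks how laminin expression differed between GFI1-overexpressing and control cells while attached. LAMB1, LAMC1 and LAMA4 were lower with GFI1 and LAMB2, LAMA3 and LAMA5 were higher. So 6 of the 8 members tested passed edgeR's quasi-likelihood test at an adjusted p of 0.05, against 62.3% of all genes tested. In each direction 3 members passed, against 29.5% of all genes higher and 32.8% lower. The groups did not overlap for 7 of 8 members, against 67% of all genes. The median absolute log2 fold change was 0.80 over the 8 members and 0.40 over all genes. LAMA4, which passed the filter on low counts only through the control groups, is in these counts and in the member median.

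LAMB1 (ENSG00000091136, GRCh38 chr7:107923799-108003255) encodes the beta1 chain, the widely expressed beta chain of epithelial and mesenchymal laminins. Its levels were 63.1, 64.1 and 62.7 CPM per kilobase in attached control and 16.7, 18.2 and 18.2 in attached GFI1 libraries. All GFI1 libraries lay far below all control libraries. LAMB1 was 3.58-fold lower, a log2 fold change of -1.84 ± 0.05 (SE; edgeR, Benjamini-Hochberg adjusted p = 3.88e-21).

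LAMB2 (ENSG00000172037, chr3:49121114-49133118) encodes the beta2 chain, which takes the place of beta1 in laminins of the kidney glomerulus, the neuromuscular junction and vessels. It read 20.5, 21.8 and 20.5 CPM per kilobase in attached control and 54.5, 52.7 and 53.7 in attached GFI1 libraries. The groups were well separated, in the direction opposite to LAMB1. LAMB2 was 2.56-fold higher, with a log2 fold change of 1.36 ± 0.04 (edgeR, adjusted p = 3.42e-19).

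LAMC1 (ENSG00000135862, chr1:183023460-183145592), the gamma1 chain shared by most laminins, read 40.0, 41.6 and 42.2 CPM per kilobase in attached control and 25.1, 25.3 and 26.9 in attached GFI1 libraries. The ranges did not meet. Its log2 fold change was -0.68 ± 0.05, or 1.60-fold lower (edgeR, adjusted p = 1.37e-12). An antisense gene, LAMC1-AS1, held 6 to 16 counts a library against 3744 or more for LAMC1.

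Among the alpha chains, LAMA3 (ENSG00000053747, chr18:23689443-23956222), of the anchoring laminin, read 5.17, 5.83 and 5.80 CPM per kilobase in attached control and 10.3, 10.5 and 10.9 in attached GFI1 libraries. The GFI1 libraries were all higher, and the log2 fold change was 0.92 ± 0.05, or 1.89-fold (edgeR, adjusted p = 5.48e-15). LAMA5 (ENSG00000130702, chr20:62307955-62367312) read 74.6, 78.5 and 80.5 CPM per kilobase in attached control and 98.6, 102.3 and 100.7 in attached GFI1 libraries. Again the ranges did not meet, but the step was smaller, 1.29-fold with a log2 fold change of 0.37 ± 0.04 (edgeR, adjusted p = 2.36e-08). LAMA5-AS1, an antisense gene at LAMA5, held 22 to 87 counts a library against 17900 or more for LAMA5, and without the strand setting such reads cannot be told apart.

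LAMA4 (ENSG00000112769, chr6:112108760-112254939) encodes the alpha4 chain, best known from endothelial and mesenchymal basement membranes. It had 25, 36 and 38 counts in attached control libraries and 0 in each attached GFI1 library. Against a floor of 3 counts over the GFI1 group, the ratio of depth-scaled counts was 37.2, without any error for the control counts. LAMA4 was called lower by its own test (edgeR, adjusted p = 7.39e-10). LAMA4 passed the filter on low counts only through the control groups. In attached control cells it made up 0.193% ± 0.0289 (SD, n = 3) of the summed CPM per kilobase of the alpha chain members.

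LAMB3 and LAMA2 did not pass the test in attached cells. LAMB3 (ENSG00000196878, chr1:209614870-209652466), the beta chain of the anchoring laminin, read 8.80, 8.93 and 8.91 CPM per kilobase in control and 9.24, 9.30 and 9.67 in GFI1 libraries, a log2 fold change of 0.08 ± 0.06 (edgeR, adjusted p = 0.203). Its libraries did not overlap, but the distance was small, and with library size alone as the scaling or upper quartile scaling the gene passed the test, at 0.23 and 0.13. LAMA2 (ENSG00000196569, chr6:128883141-129516569), the alpha chain of muscle laminin, had 27, 32 and 44 counts in control and 37, 61 and 58 in GFI1 libraries, which overlapped, with a log2 fold change of 0.42 ± 0.23 (edgeR, adjusted p = 0.114). It passed at 0.56 with library size alone and at 0.64 without the third attached control library.

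**Figure D2:**
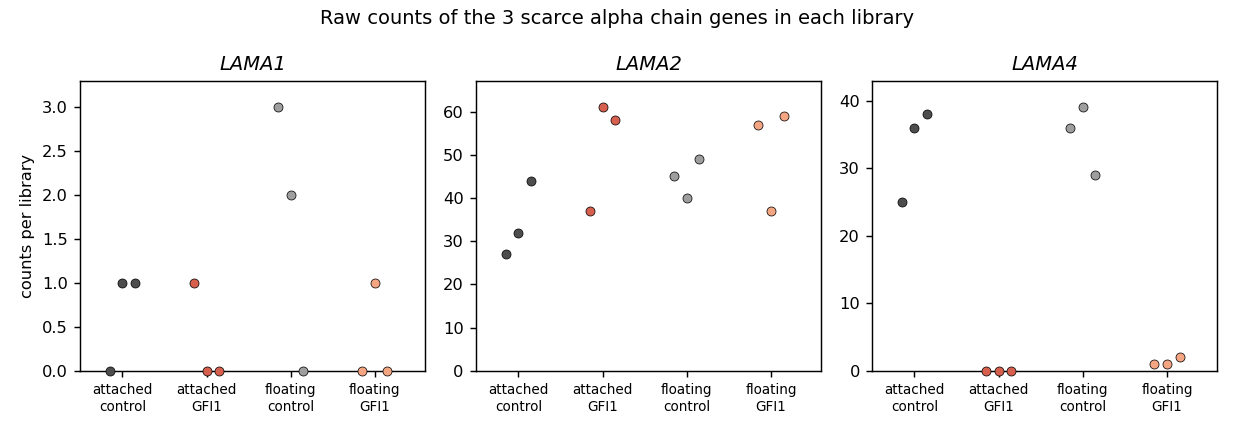
Raw counts (vertical axes, from 0) of LAMA1, LAMA2 and LAMA4 in each of the 12 libraries, with 1 point a library and no length or depth scaling. LAMA1 had 0 to 3 counts everywhere, LAMA2 27 to 61 with overlap between groups, and LAMA4 25 to 39 in control libraries against 0 to 2 in GFI1 libraries.

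The same contrast was made in floating cells. LAMB1, LAMC1, LAMA4 and LAMB3 were lower with GFI1, and LAMB2, LAMA3 and LAMA5 were higher. This made 7 of 8 members past the test, against 60.4% of all genes, and 7 of 8 without overlap between groups, against 64.4%. There were 3 members higher, against 29.3% of all genes, and 4 lower, against 31.1%. The median absolute log2 fold change was 0.57 over the members and 0.38 over all genes. Again LAMA4, which passed the filter only through the control groups, is in these counts and in the member median.

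LAMB1 read 67.5, 66.6 and 69.1 CPM per kilobase in floating control and 13.7, 13.1 and 14.8 in floating GFI1 libraries. GFI1 libraries were again all far lower, by 4.88-fold, a log2 fold change of -2.29 ± 0.05 (edgeR, adjusted p = 6.35e-23). LAMB2 read 35.2, 32.4 and 32.7 CPM per kilobase in floating control and 64.0, 62.9 and 63.8 in floating GFI1 libraries. The groups stood clear of each other, with LAMB2 1.90-fold higher and a log2 fold change of 0.93 ± 0.04 (edgeR, adjusted p = 6.06e-16).

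LAMB3, which had not passed the test in attached cells, fell here. It read 17.6, 15.8 and 15.6 CPM per kilobase in floating control and 9.73, 10.2 and 10.5 in floating GFI1 libraries. Every GFI1 library was lower, by 1.61-fold on average, a log2 fold change of -0.68 ± 0.05 (edgeR, adjusted p = 2.23e-11).

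LAMC1 read 38.5, 37.8 and 37.9 CPM per kilobase in floating control and 29.1, 28.4 and 31.8 in floating GFI1 libraries, with no overlap and a log2 fold change of -0.36 ± 0.05 (edgeR, adjusted p = 2e-07). LAMA3 read 5.17, 4.98 and 4.99 CPM per kilobase in floating control and 6.85, 6.99 and 6.71 in floating GFI1 libraries. That was 1.36-fold higher in libraries that did not overlap, a log2 fold change of 0.44 ± 0.05 (edgeR, adjusted p = 1.51e-08).

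LAMA5 read 84.4, 82.7 and 81.2 CPM per kilobase in floating control and 117.6, 114.3 and 110.3 in floating GFI1 libraries. All 3 GFI1 libraries were higher, by 1.38-fold, a log2 fold change of 0.46 ± 0.04 (edgeR, adjusted p = 4.17e-10). LAMA4 had 36, 39 and 29 counts in floating control and 1, 1 and 2 in floating GFI1 libraries. The ratio of depth-scaled counts was 28.7, with a 95% interval of 10.9 to 107 that covers counting error only (edgeR, adjusted p = 5.33e-09). LAMA2, at 40 to 49 and 37 to 59 counts, overlapped between the groups, with a log2 fold change of 0.05 ± 0.22 (edgeR, adjusted p = 0.86).

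Leaving out the third floating GFI1 library changed little. LAMB1 was then at -2.34, LAMB2 at 0.93, LAMB3 at -0.71, LAMC1 at -0.41, LAMA3 at 0.46 and LAMA5 at 0.49 on the log2 scale, and 7 members still passed.

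**Figure D3:**
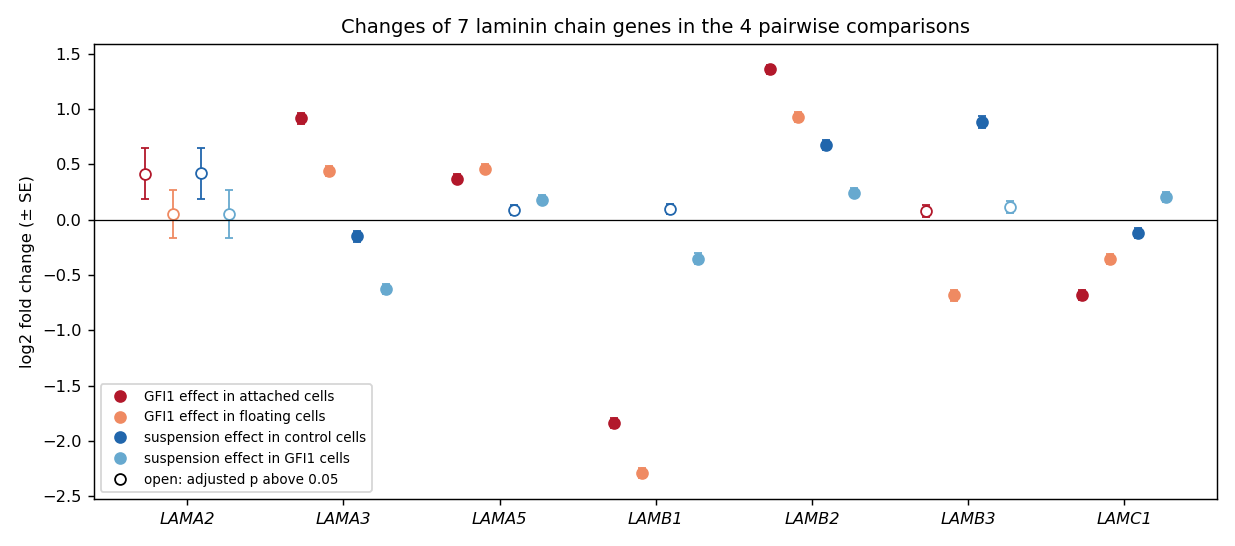
Log2 fold change with its standard error (vertical axis) of 7 laminin chain genes in the 4 pairwise comparisons (colours), filled where the adjusted p was 0.05 or less and open otherwise. LAMB1 lies at -1.84 and -2.29 and LAMB2 at 1.36 and 0.93 for GFI1, and LAMB3 passed the test for GFI1 only in floating cells, where it is at -0.68. LAMA4 is left out because it was at the floor in attached GFI1 cells.

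The third comparison asks how 48 h of suspension differed from attached growth in control cells. LAMB3 and LAMB2 rose, by 1.84-fold and 1.60-fold, while LAMA3 and LAMC1 fell slightly. In all 4 of 8 members passed the test, against 40.1% of all genes, and 5 of 8 did not overlap, against 49.9%. In each direction 2 members passed, against 19.6% of all genes higher and 20.5% lower. The median absolute log2 fold change of the members was 0.13, that of all genes 0.24.

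LAMB3 went from 8.80 to 8.93 CPM per kilobase in attached to 15.6 to 17.6 in floating control libraries, a log2 fold change of 0.88 ± 0.05 (edgeR, adjusted p = 1.57e-12). LAMB2 went from 20.5 to 21.8 CPM per kilobase to 32.4 to 35.2, a log2 fold change of 0.68 ± 0.04 (edgeR, adjusted p = 4.56e-12). Both beta chains were thus separated between the attached and floating libraries. LAMB1, by contrast, had a log2 fold change of 0.10 ± 0.04 and did not pass (edgeR, adjusted p = 0.0871), nor did LAMA5 at 0.09 ± 0.04 (edgeR, adjusted p = 0.094). Both passed with upper quartile scaling or library size alone, LAMB1 at 0.12 and LAMA5 at 0.11. LAMA5 also passed under DESeq2, at 0.10. LAMB1 also passed with 10 counts required in every library, at 0.11, with only the compared groups fitted, at 0.10, and without the third floating GFI1 library, at 0.10.

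LAMA3 changed by -0.15 ± 0.05 on the log2 scale (edgeR, adjusted p = 0.0154), with the lowest attached and the highest floating library both at 5.17 CPM per kilobase. LAMC1 changed by -0.12 ± 0.04 (edgeR, adjusted p = 0.0413). LAMC1 lost its call under DESeq2 (adjusted p = 0.0592), under 4 other scalings or filters, and without any 1 attached GFI1 library or replicate 1 of either floating group. Both genes lost theirs without replicate 2 or 3 of either control group, which left 2 members past the test. LAMA2 and LAMA4 did not pass, at 0.42 ± 0.23 and 0.12 ± 0.26 (edgeR, adjusted p = 0.16 and 0.766).

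The fourth comparison is suspension against attachment in GFI1 cells. LAMA3 and LAMB1 fell, and LAMB2, LAMC1 and LAMA5 rose. Thus 5 of 8 members passed, against 31.3% of all genes, and 7 of 8 did not overlap, against 41.4%. Of these 3 were higher, against 15% of all genes, and 2 lower, against 16.3%. The median absolute log2 fold change was 0.23 over the members and 0.19 over all genes. LAMA4 is among the 7 without overlap and in the member median, at 0 counts in attached and 1 to 2 in floating GFI1 libraries.

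LAMA3 had the largest called change here, from 10.3 to 10.9 CPM per kilobase in attached to 6.71 to 6.99 in floating GFI1 libraries. It was 1.54-fold lower, with a log2 fold change of -0.63 ± 0.05 (edgeR, adjusted p = 9.6e-11), and no floating library came near an attached one. LAMB1 went from 16.7 to 18.2 CPM per kilobase to 13.1 to 14.8, with a log2 fold change of -0.35 ± 0.05 (edgeR, adjusted p = 2.85e-06).

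On the log2 scale LAMB2 changed by 0.25 ± 0.04 (edgeR, adjusted p = 4.83e-05), LAMC1 by 0.21 ± 0.05 (edgeR, adjusted p = 0.000902) and LAMA5 by 0.18 ± 0.04 (edgeR, adjusted p = 0.00124). Each of these rose without overlap of the groups. LAMB3, which had risen with suspension in control cells, was at 0.11 ± 0.05 and did not pass (edgeR, adjusted p = 0.123), and LAMA2 was at 0.05 ± 0.21 (edgeR, adjusted p = 0.892). LAMA4 was at 2 counts or fewer in all 6 GFI1 libraries, so no fold is given. Without the third floating GFI1 library 5 members still passed.

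Whether the GFI1 difference itself changed with suspension was tested by the interaction of genotype and suspension, which uses all 4 groups. It passed for 5 of 8 members, LAMB3, LAMA3, LAMB1, LAMB2 and LAMC1, against 10.8% of all genes. These 5 had 693 or more counts in every library, while that share covers all genes past the filter, at any depth. The interaction was positive for 1 member, against 4.76% of all genes, and negative for 4, against 6.01%. The median absolute interaction was 0.44 on the log2 scale over the members and 0.18 over all genes. LAMA4, at the floor in both GFI1 groups, is included in the member median.

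LAMB3 had the largest called interaction, -0.77 ± 0.08 (edgeR, adjusted p = 1.24e-07): its level was much higher in floating control cells alone, and the other 3 groups lay between 8.80 and 10.5 CPM per kilobase. For LAMA3 the interaction was -0.47 ± 0.07 (edgeR, adjusted p = 2.04e-05) and for LAMB2 it was -0.43 ± 0.06 (edgeR, adjusted p = 1.89e-05). In both genes the GFI1 step upward was larger in attached than in floating cells.

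LAMB1 had an interaction of -0.45 ± 0.07 (edgeR, adjusted p = 3.51e-05), its step downward being larger in floating cells. LAMC1 went the other way, with 0.32 ± 0.06 (edgeR, adjusted p = 0.00111) and a smaller step downward in floating cells. LAMA5 did not pass, at 0.09 ± 0.06 (edgeR, adjusted p = 0.368), and neither did LAMA2 (edgeR, adjusted p = 0.542) or LAMA4 (edgeR, adjusted p = 0.132). GFI1 itself was higher in floating than in attached GFI1 libraries, as given above, and its part in these interactions was not tested. Without the third floating GFI1 library the interaction was -0.79 for LAMB3, -0.46 for LAMA3, -0.50 for LAMB1, -0.43 for LAMB2 and 0.27 for LAMC1. With a change of at least 2-fold also required, 3 members passed for GFI1 in attached cells and 2 in floating cells, against 18.2% and 17.3% of all genes. LAMA4 was among them in both states. None passed for suspension in control cells, suspension in GFI1 cells or the interaction, against 5.1%, 2.8% and 1.35% of all genes.

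The makeup of the chains was then described per class, as the share of each gene in the summed CPM per kilobase of the members of its class, with no test. LAMB1 made up 68.0% ± 0.371 (SD, n = 3) of the beta chain members in attached control and 21.9% ± 1.04 in attached GFI1 cells, 57.7% ± 1.39 in floating control and 15.8% ± 0.724 in floating GFI1 cells. LAMB2 made up 22.5% ± 0.461 and 66.4% ± 1.16 in the attached pair and 28.4% ± 0.717 and 72.6% ± 0.862 in the floating pair. The leading beta chain was thus LAMB1 in control and LAMB2 in GFI1 cells, in both states. LAMB3 was between 9.54% and 13.9% of the beta members in every group.

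**Figure D4:**
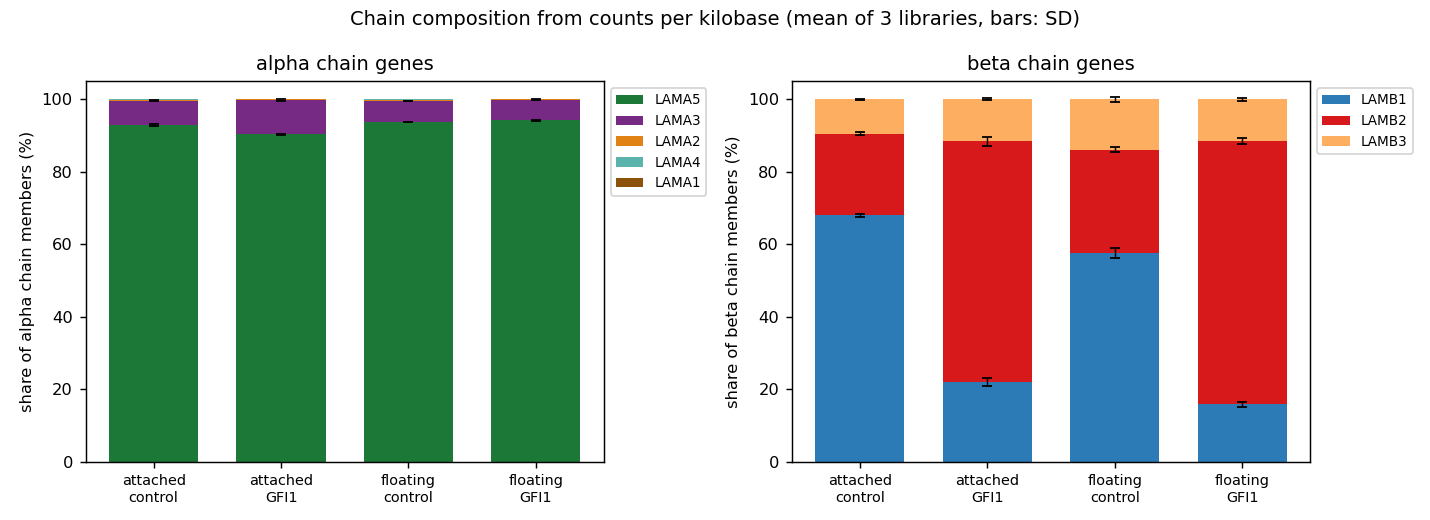
Share of each gene in the summed CPM per kilobase (vertical axis, percent, from 0) of the alpha chain members (left) and beta chain members (right) in the 4 groups, as the mean of 3 libraries with SD bars. LAMB1 goes from 68.0% to 21.9% of the beta members between attached control and GFI1 cells, while LAMA5 stays between 90.3% and 94.1% of the alpha members.

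The ratio of LAMB2 to LAMB1 was 0.324, 0.340 and 0.326 in attached control, 3.27, 2.89 and 2.95 in attached GFI1, 0.521, 0.487 and 0.473 in floating control and 4.66, 4.80 and 4.31 in floating GFI1 libraries. It was under 1 in all 6 control libraries and over 1 in all 6 GFI1 libraries, and within each genotype the floating libraries were all higher than the attached ones. Because both genes are read in the same library, this ratio does not depend on the scaling between libraries. The sum of the beta members was 93.1 ± 1.48 CPM per kilobase in attached control and 80.7 ± 0.669 in attached GFI1 cells, and 117.5 ± 2.71 and 87.6 ± 1.45 in the floating pair.

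**Figure D5:**
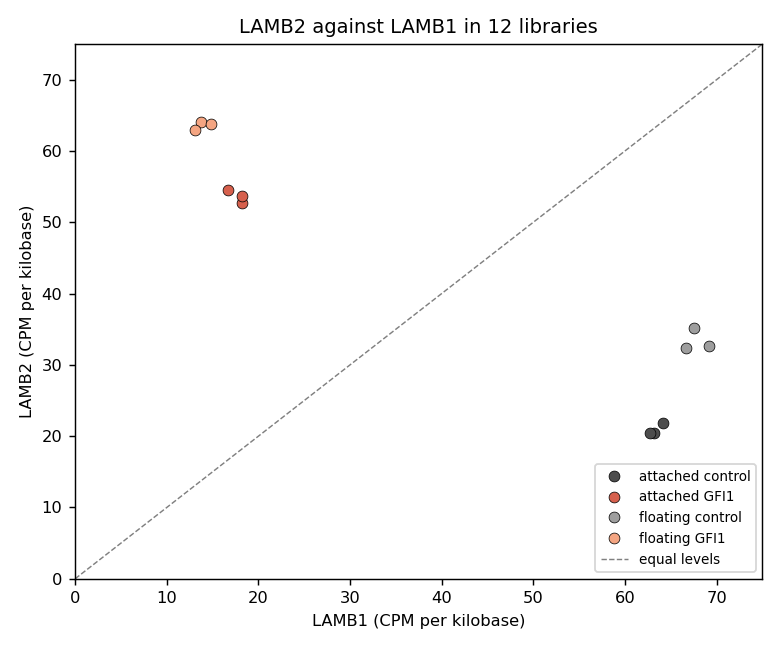
LAMB2 against LAMB1 in CPM per kilobase (both axes from 0) with 1 point for each of the 12 libraries, coloured by group, and a dashed line of equal levels. The 6 control libraries lie below the line with LAMB1 at 62.7 to 69.1 and the 6 GFI1 libraries above it with LAMB1 at 13.1 to 18.2.

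The alpha members were dominated by LAMA5 in every group, at 92.9% ± 0.248, 90.3% ± 0.223, 93.8% ± 0.0486 and 94.1% ± 0.121 in attached control, attached GFI1, floating control and floating GFI1 cells. LAMA3 supplied 6.68% ± 0.212, 9.49% ± 0.210, 5.72% ± 0.0567 and 5.65% ± 0.143. Both GFI1 groups had a higher alpha sum, 111.4 ± 2.04 against 83.8 ± 3.43 CPM per kilobase in attached and 121.2 ± 3.71 against 88.3 ± 1.72 in floating cells.

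The share of LAMA3 depends on its transcripts. The annotation holds a long LAMA3 transcript of 10651 bases in 75 exons and a short one of 5618 bases in 38 exons that starts at chr18:23873020, inside the gene, while the deposited exon length is 14678 bases. Gene counts do not separate them. With the short length, LAMA3 would supply 15.7%, 21.5%, 13.7% and 13.5% of the alpha members in the same order of groups.

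Ratios between classes moved too. LAMA5 stood at 1.89 ± 0.0207 times LAMC1 per kilobase in attached control and 3.91 ± 0.147 times in attached GFI1 cells, and at 2.18 ± 0.0270 and 3.85 ± 0.324 times in floating cells. LAMA3 over LAMB3 was 0.630 ± 0.0369 in attached control and 1.12 ± 0.00770 in attached GFI1 cells. In floating control and floating GFI1 cells it was 0.309 ± 0.0134 and 0.675 ± 0.0340, all as means ± SD of 3 libraries. These ratios compare RNA levels of single genes, not amounts of an assembled laminin. With the length of the short LAMA3 transcript the last ratio became 1.65, 2.94, 0.808 and 1.76 in the same groups, so which of the genes was higher per kilobase depends on that length. Both ratios were higher in every GFI1 library than in every control library of the same state.

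The protein-coding genes whose log2 CPM was most like that of a member across the 12 libraries were found by Pearson correlation, as a description. The 12 points share 4 groups, so they are not independent. For LAMB1 these were MID1, COL5A2 and PARD3, all with r = 0.999, for LAMB2 AQP3, CD38 and PROS1 with r = 0.998, 0.996 and 0.996, and for LAMC1 LSS, IL13RA1 and TMEM245 with r = 0.992, 0.988 and 0.986. LAMA5 was most like EPS8L2, MEIS3 and MZF1 (r = 0.993, 0.992 and 0.990), LAMA3 most like NT5C2 (r = 0.982), LAMB3 most like RAB37 (r = 0.983) and LAMA4 most like GPRIN3 (r = 0.997). LAMA4 was at 2 counts or fewer in the GFI1 libraries, so its r rests largely on the step between genotypes. LAMA2, with its few counts, reached only r = 0.841 with ATF7IP2.

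Of the laminin chain genes outside the 9 members, LAMB4 and LAMC3 were looked at. Both were scarce, at 9 to 31 and 53 to 99 counts a library. LAMB4 passed 1 of the 5 tests, that of GFI1 in floating cells, with a log2 fold change of -1.27 ± 0.33 (edgeR, adjusted p = 0.00177), and LAMC3 passed none.

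Laminins are anchored to other matrix proteins, and of 13 genes of basement membrane partners 12 were tested. With GFI1, 6 rose and 6 fell in attached cells, and the same numbers in floating cells, so 12 of 12 passed in each, against 62.3% and 60.4% of all genes. The lists, like the laminin members, were chosen with earlier results of these data known, so their shares only describe them. Here and in the lists that follow, the genes named are those of lowest adjusted p in each direction, which need not have the largest change. NID2, a nidogen that bridges laminin and collagen IV, had the lowest adjusted p among those that rose, with log2 fold changes of 3.03 in attached and 3.88 in floating cells. COL4A1 had it among those that fell in attached cells (-2.52) and COL4A2 in floating cells (-1.88), and these genes encode the main collagen IV chains.

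With suspension, 3 partners rose and 6 fell in control cells, and 1 rose and 7 fell in GFI1 cells, 9 and 8 of 12 against 40.1% and 31.3% of all genes. By adjusted p, COL4A6 came first of those that rose in control cells (0.38) and COL4A1 of those that fell (-0.80). In GFI1 cells, NID1 was the only one to rise (0.44), and HSPG2, the perlecan gene, came first of those that fell (-0.90). The medians of the 12 partners were 0.04, -0.03, -0.32 and -0.23 in the 4 pairwise comparisons.

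Of 10 laminin receptor genes 9 were tested, and 4 rose and 3 fell with GFI1 in each state, 7 of 9 against 62.3% of all genes in attached and 60.4% in floating cells. ITGA6, an alpha subunit of laminin integrins of epithelia, fell, with log2 fold changes of -1.93 in attached and -2.07 in floating cells. ITGB4, its partner in hemidesmosomes, had the lowest adjusted p of those that rose in attached cells (0.73), and the syndecan gene SDC1 in floating cells (0.35). The rise of ITGA7, another laminin integrin subunit, named after its values were seen, was larger in both states, at 1.11 and 1.21. ITGA7 was scarce, at 29 to 55 counts in control and 74 to 114 in GFI1 libraries. ITGA3, a further alpha subunit on this list and likewise named after its values were seen, rose by 0.32 and 0.29. Besides ITGA6, the genes that fell were the integrin beta subunit ITGB1, at -0.36 and -0.54, and BCAM, a receptor of alpha5 laminins, at -0.83 and -0.78. With suspension, 3 receptors rose and 3 fell in control cells, and 2 rose and 3 fell in GFI1 cells, 6 and 5 of 9 against 40.1% and 31.3% of all genes. ITGB4 came first by adjusted p upward (1.21 and 0.51) and BCAM downward (-0.44 and -0.39). The medians of the 9 receptors were 0.09, 0.07, 0.06 and 0.01 in the 4 pairwise comparisons.

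All 6 hemidesmosome genes were tested, among them ITGA6 and ITGB4 again. With GFI1, 4 rose and 2 fell in attached cells and 3 rose and 2 fell in floating cells, 6 and 5 of 6 against 62.3% and 60.4% of all genes. DST, which links keratin filaments to the junction, came first by adjusted p upward (0.61 and 0.87), and ITGA6 downward. With suspension, 3 rose and 2 fell in each genotype, 5 of 6 against 40.1% and 31.3% of all genes. ITGB4 came first upward in both, and CD151 (-0.33) and PLEC (-0.30) downward in control and GFI1 cells. The medians of the 6 genes were 0.32, 0.18, 0.14 and 0.18.

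Of 13 genes for the sugar chain by which dystroglycan holds laminin, 3 rose and 4 fell with GFI1 in attached cells and 4 rose and 4 fell in floating cells, 7 and 8 of 13 against 62.3% and 60.4% of all genes. B4GAT1, a glycosyltransferase of this pathway, had the lowest adjusted p among those that fell, with log2 fold changes of -0.60 and -0.70. With suspension, none rose and 2 fell in control cells, and 1 rose, POMT1 (0.19), and 3 fell in GFI1 cells, 2 and 4 of 13 against 40.1% and 31.3% of all genes. POMT2 came first by adjusted p of those that fell in both (-0.30 and -0.20). The medians of the 13 genes were -0.03, -0.04, -0.01 and -0.03.

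Netrins share the N-terminal fold of laminins, and 5 of 6 were tested. With GFI1, 2 rose and 1 fell in attached cells and 3 rose and 1 fell in floating cells, 3 and 4 of 5 against 62.3% and 60.4% of all genes. NTNG2 came first by adjusted p upward (1.70 and 0.74), and NTN4 was the gene that fell (-0.19 and -0.50). With suspension 1 rose and 1 fell in each genotype, 2 of 5 against 40.1% and 31.3% of all genes, NTNG2 upward in both (1.32 and 0.36), NTN1 downward in control (-0.85) and NTN4 in GFI1 cells (-0.31). The medians of the 5 netrins were 0.33, 0.53, 0.34 and 0.16.

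Of 8 matrix protease genes 7 were tested, and 2 rose and 4 fell with GFI1 in attached cells, 3 rose and 3 fell in floating cells, 6 of 7 in each against 62.3% and 60.4% of all genes. MMP7, the matrilysin gene, rose, at 2.28 and 2.31 on the log2 scale, and PLAU, the urokinase gene, fell, at -1.88 and -2.51. With suspension, 2 rose and 2 fell in control cells, and 1 rose, MMP7 (0.31), and 2 fell in GFI1 cells, 4 and 3 of 7 against 40.1% and 31.3% of all genes. MMP2 (1.03) and PLAU (-0.79) came first by adjusted p in control cells and PLAU downward in GFI1 cells (-1.42). The medians of the 7 proteases were -0.30, -0.32, 0.02 and -0.05. TLL1, in these counts and medians, had 14 to 23 counts in attached control and 13 to 23 in floating control libraries. It had at most 1 count in attached and 2 in floating GFI1 libraries. So it passed the filter on low counts only through the control groups, and its fall with GFI1 ends at the floor.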

How the data were processed

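Gene counts of 12 A549 RNA-Seq libraries were used as the authors deposited them in 1 table, with gene names, GRCh38 coordinates and exon lengths. The methods of the study name Hisat2 and featureCounts, and the submitters' processing notes name Bowtie2, HTSeq and hg38. The annotation release and the strand setting were not given in the sources used here. Total counts were 17014188 to 20748677 a library, which limits precision for members with few counts.

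Genes were kept by edgeR's filterByExpr (minimum count 10, minimum total 15), which left 17829 of 58735. Counts were scaled by TMM and fitted over all 4 groups with edgeR 4.0.16 in R 4.3.3 by the quasi-likelihood test, two-sided, with Benjamini-Hochberg adjustment over all genes tested and a call at 0.05 or less. Fold changes are log2. Each standard error is the absolute log2 fold change divided by the square root of the quasi-likelihood F statistic, so it follows from the same test. The 4 pairwise contrasts share groups: each group of 3 libraries enters 2 of them. For floor values 3 counts were used. The code was tested on simulated data.

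The 9 members and the 7 gene lists were chosen with earlier results of these data known. All members were named, and in each list the gene of lowest adjusted p in each direction of each pairwise contrast, with the genes most correlated with a member among protein-coding genes whose mean log2 CPM was 1 or more. The value of 1 gene that this rule names is not reported here. No member or list was tested as a set. Alternatives were DESeq2 1.42.0, other scalings, filters and fits, a 2-fold threshold, a replicate block and each library left out. Same-numbered libraries of different groups did not deviate together, so the numbers were not taken as pairs.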

Additional observations from a re-analysis of the deposited data

Results flagged for a closer look

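For 5 members the GFI1 difference changed between attached and floating cells by the test of that change itself, the interaction of genotype and suspension. Its values, on the log2 scale, were -0.47 for LAMA3, -0.45 for LAMB1, -0.43 for LAMB2, -0.77 for LAMB3 and 0.32 for LAMC1. The adjusted p-values of edgeR were 2.04e-05, 3.51e-05, 1.89e-05, 1.24e-07 and 0.00111. Groups of 3 libraries were too small to test single libraries as outliers.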

How the results depend on the processing

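Of 825 alternative values of single members, 788 kept their direction and their side of the threshold, 18 lost and 12 gained a call, and 7 changed sign, none of them called. The sign changes came from leaving out single libraries: LAMA2 ran from -0.0558 to 0.219 for GFI1 in floating cells and from -0.0754 to 0.200 for suspension in GFI1 cells, and LAMA4 from -0.0223 to 0.252 for suspension in control cells. A 2-fold threshold left 3, 2, 0, 0 and 0 members called in the 4 pairwise comparisons and the interaction, against 18.2%, 17.3%, 5.1%, 2.8% and 1.35% of all genes. LAMA4, at the floor in GFI1 cells, is among those left for GFI1 in both states. Leaving out single libraries gave 6 to 7, 7, 2 to 5, 5 and 5 members. It gave LAMA5 shares of 92.8 to 93.0%, 90.2 to 90.4%, 93.8 to 93.8% and 94.1 to 94.2%, and LAMB1 shares of 67.8 to 68.2%, 21.5 to 22.5%, 57.1 to 58.4% and 15.4 to 16.2%, in attached control, attached GFI1, floating control and floating GFI1 cells. Without length scaling the LAMB1 shares were 73.6%, 25.9%, 64.3% and 18.9%. With the short LAMA3 length, an alternative chosen after seeing the data, the LAMA3 to LAMB3 ratio ran from 0.808 to 2.94 and the LAMA5 shares were 83.9%, 78.3%, 85.9% and 86.3%. Library size alone moved the median log2 fold change of all genes to 0.14 in both GFI1 contrasts and raised the share of higher genes among those called to 61.5% in attached and 61.4% in floating cells, against 47.4% and 48.5% with TMM. No called member changed direction under it.

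With the replicate number as a block, 6, 7, 4, 5 and 5 members were called, and no call changed in 45 values. The numbers did not pair the libraries: over 18 pairs the correlation of deviations ran from -0.0306 to 0.0311. Depth limits LAMA1, LAMA2 and LAMA4, and the causes of these changes were not tested.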
